A study of Mus musculus with 4 samples.

Results

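Of the 1075 AS events that the deposited table lists between NOVA2-overexpressing and control ECs, 62 lay in genes of membrane transporters, pumps, channels and other transmembrane proteins. These events were taken by the first letters of the gene symbol (Slc, Abc, Atp, Tmem, Kcn, Cacn, Clcn, Trp, Ano, Itpr, Tmc, Tmed, Mfsd, Scn, Stim or Orai), and they fell in 42 of the 869 genes of the table. The letters Kcn, Orai, Scn, Stim and Tmed found 0 events each. In 2 genes the symbol does not give the role of the protein: Trp53i11, a gene induced by p53, was caught by Trp and is no channel of the TRP family, and Atp5sl helps to assemble respiratory complex I and is no part of an ATPase. Tmem149 is the receptor Igflr1. Mouse ECs of both groups had been transduced with lentivirus and kept under puromycin as stable lines. NOVA2-overexpressing ECs were grown sparse, and the density of the control ECs is not given in the sources used here. The vector carried human NOVA2 with an HA tag behind the CMV promoter in NOVA2-overexpressing ECs, and HA without NOVA2 in control ECs. Each group had 2 RNA-seq libraries (replicates 1 and 2), and no source used here states whether these were separate cultures, so the p-values may measure technical spread only. No table of gene expression was used, so the level of NOVA2 and of endothelial marker genes was not analysed here.

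The PSI is the percent of informative reads in which an exon, intron or splice site is included. The dPSI is the difference between the group means, NOVA2-overexpressing minus control, in percentage points. The table holds an event only if every library of one group lay more than 5 points from every library of the other. The groups of the 62 events therefore never overlapped, which carries no information, and the smallest gap between them was 5.02 points. Both kinds of alternative splice site, Alt3 for the 3′ end of an intron and Alt5 for its 5′ end, are listed in this table only with a higher PSI in NOVA2-overexpressing ECs. Reads over the 62 events summed to 5811 in control replicate 1, 7313 in control replicate 2, 8635 in NOVA2-overexpressing replicate 1 and 8378 in NOVA2-overexpressing replicate 2, fewer in both control libraries. In the same order, 16, 8, 5 and 3 of the 62 events carried VLOW, the lowest coverage score of vast-tools. The part of read depth in the results was not tested.

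NOVA2 is an RNA-binding protein of neurons and of vascular endothelium that binds clusters of the letters YCAY, where Y is C or T in the gene. As background, NOVA proteins bound in an exon or in the intron before it are known to favour skipping, and binding in the intron after it to favour inclusion. ABC proteins and P-type ATPases use ATP to move lipids, drugs or ions across membranes, solute carriers exchange or cotransport small molecules, and the inositol trisphosphate receptor releases calcium from the endoplasmic reticulum. In ECs such proteins set calcium signals, lipid asymmetry of the plasma membrane and nutrient uptake.

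The sequences below are those behind the exons and splice sites on which the results turn. They were read from mm9 (NCBIM37) and are printed 5′ to 3′ on the strand of the gene. In the first group, 4 alternative donor sites are shown with the part added by the longer exon in capitals: Itpr1 at chr6:108338313-108338379 (plus strand), Atp2b1 at chr10:98453813-98453856 (plus), Tmem44 at chr16:30537520-30537563 (minus) and Atp6v1e1 at chr6:120772586-120772629 (minus).
Itpr1 donor sites: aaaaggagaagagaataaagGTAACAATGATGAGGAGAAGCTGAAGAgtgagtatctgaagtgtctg
Atp2b1 donor sites: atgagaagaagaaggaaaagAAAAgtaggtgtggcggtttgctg
Tmem44 donor sites: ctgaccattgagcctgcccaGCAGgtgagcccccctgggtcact
Atp6v1e1 donor sites: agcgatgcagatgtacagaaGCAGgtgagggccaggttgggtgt
The longer exon is followed by GT at all 4 genes. After the shorter exon the next bases are GT in Itpr1, GC in Tmem44 and Atp6v1e1, and AA in Atp2b1. The added part is 27 nt in Itpr1 and 4 nt in the other 3 genes.

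In the second group, cassette exons are shown with the YCAY letters (CA with a T or C on either side, on the transcript strand only, overlapping matches counted) in capitals. They are the 45-nt exon of Itpr1 (chr6:108315293-108315337, plus), the 78-nt exon of Slc9a5 (chr8:107885461-107885538, plus) with the 100 intron bases before it (chr8:107885361-107885460), the 205-nt exon of Slc30a4 (chr2:122513600-122513804, minus) and the 99-nt exon of Tmem138 (chr19:10649327-10649425, minus).
Itpr1 exon: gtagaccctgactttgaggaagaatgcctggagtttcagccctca
Slc9a5 upstream intron: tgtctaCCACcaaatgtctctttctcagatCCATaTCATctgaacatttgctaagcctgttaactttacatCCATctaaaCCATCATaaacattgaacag
Slc9a5 exon: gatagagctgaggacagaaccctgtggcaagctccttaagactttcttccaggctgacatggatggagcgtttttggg
Slc30a4 exon: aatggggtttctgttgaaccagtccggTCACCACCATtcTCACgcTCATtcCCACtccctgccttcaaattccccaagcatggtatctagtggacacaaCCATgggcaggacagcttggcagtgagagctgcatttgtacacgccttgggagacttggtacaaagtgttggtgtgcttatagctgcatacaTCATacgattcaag
Tmem138 exon: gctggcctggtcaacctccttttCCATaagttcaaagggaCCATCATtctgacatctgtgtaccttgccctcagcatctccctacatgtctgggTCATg
The letters occur 8 times in the Slc30a4 exon, 4 times in the Tmem138 exon and 0 times in the exons of Slc9a5 and Itpr1. They occur 6 times in the 100 bases before the Slc9a5 exon.

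To learn how the splicing of transporter and transmembrane genes differed between NOVA2-overexpressing and control ECs, the 62 events were first counted by size, direction and class. An absolute dPSI of at least 10 points was found in 26 events of 19 genes, 18 with a higher and 8 with a lower PSI in NOVA2-overexpressing ECs. That is 41.9% of the 62 events, beside 53.1% of all events of the table (33.0% higher and 20.1% lower). In size, the median dPSI was 9.37 points, beside 10.3 points for all events. Just under 10 points lay Tmem179b (9.40 points for a 3′ site and −9.86 points for an exon) and Mfsd3 (9.77 points), and just above it Tmem161b (10.1 points), Ano8 (10.3 points) and Abca4 (−10.3 points). Fisher's exact test (two-sided, on the reads of each group, adjusted over all 1075 events) called 33 of the 62 events (53.2%) at an adjusted p under 0.05, 21 higher and 12 lower. In the whole table the share was 56.0%, with 30.5% called higher and 25.5% called lower, so the share of the 62 events was near that of the table. It compares libraries, not conditions, and since the table was chosen for a gap between the groups its p is no false discovery rate. With 2 libraries a group, an exact permutation test of 1 event cannot give a two-sided p under 0.333. Without control replicate 2 the same test called 19 of the 62 events, 12 higher and 7 lower.

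The deposited reads had been corrected for mappability, so the test was repeated on the junction reads before that correction. This alternative was chosen after seeing the data. For cassette exons and introns, the junction reads count inclusion at both junctions, without halving. In these classes the 2 versions therefore differ by this count as well as by the correction. With inclusion halved, the correction multiplied the odds by 0.9996 to 1.0002 in the Tmem138 exon. In the Atp6v1e1 exon that factor was 0.0883 to 0.0922. The test on junction reads called 29 of the 62 events, 23 higher and 6 lower. That stands beside 53.4% of the table (32.4% higher and 21.0% lower). Both versions called 23 of the 62 events, beside 45.4% of the table. Among the genes of these 23 events were Abca7, Abcc5, Atp13a2, Atp2b1, Itpr1, Mfsd11, Slc12a8, Slc29a2, Slc30a4, Slc35a5, Slc9a5, Tmc8, Tmem120b, Tmem138, Tmem149 and Tmem179b. Some of the 62 events rest on the same reads. Grouped by overlapping or adjoining position, or by inclusion or exclusion totals equal within 1 read, they formed 54 sets. Of these, 27 held a call. Single junctions were not compared, so neighbouring exons in different sets may still share reads. The whole table was not grouped in this way.

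**Figure D1:**
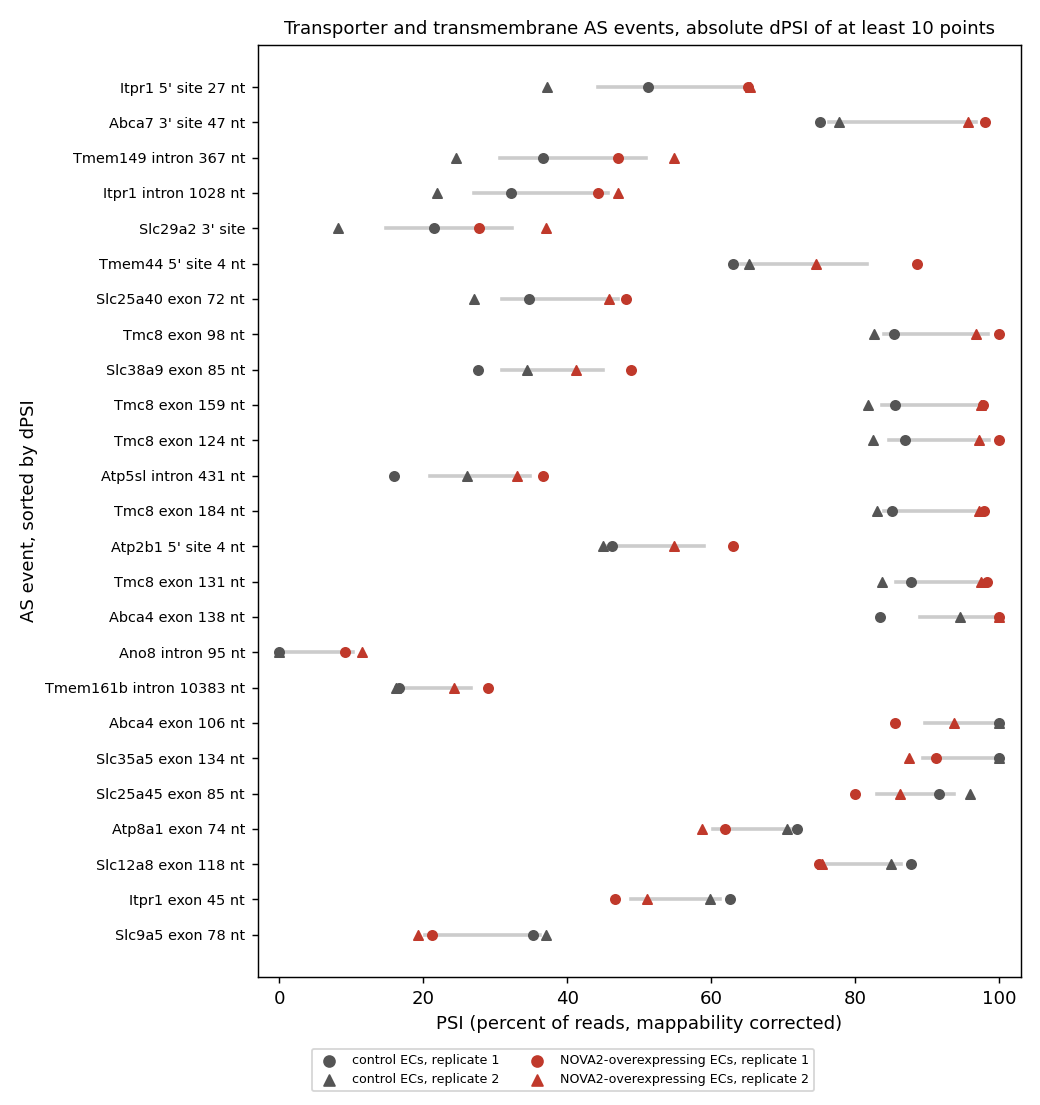
PSI in percent (horizontal axis) of 25 of the 26 transporter and transmembrane AS events whose dPSI was 10 points or more in either direction, sorted by dPSI. Circles and triangles are replicates 1 and 2, grey for control and red for NOVA2-overexpressing ECs, and the bar joins the group means. Of those drawn, the Slc9a5 exon is the lowest in dPSI and the Itpr1 5′ site the highest.

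**Figure D2:**
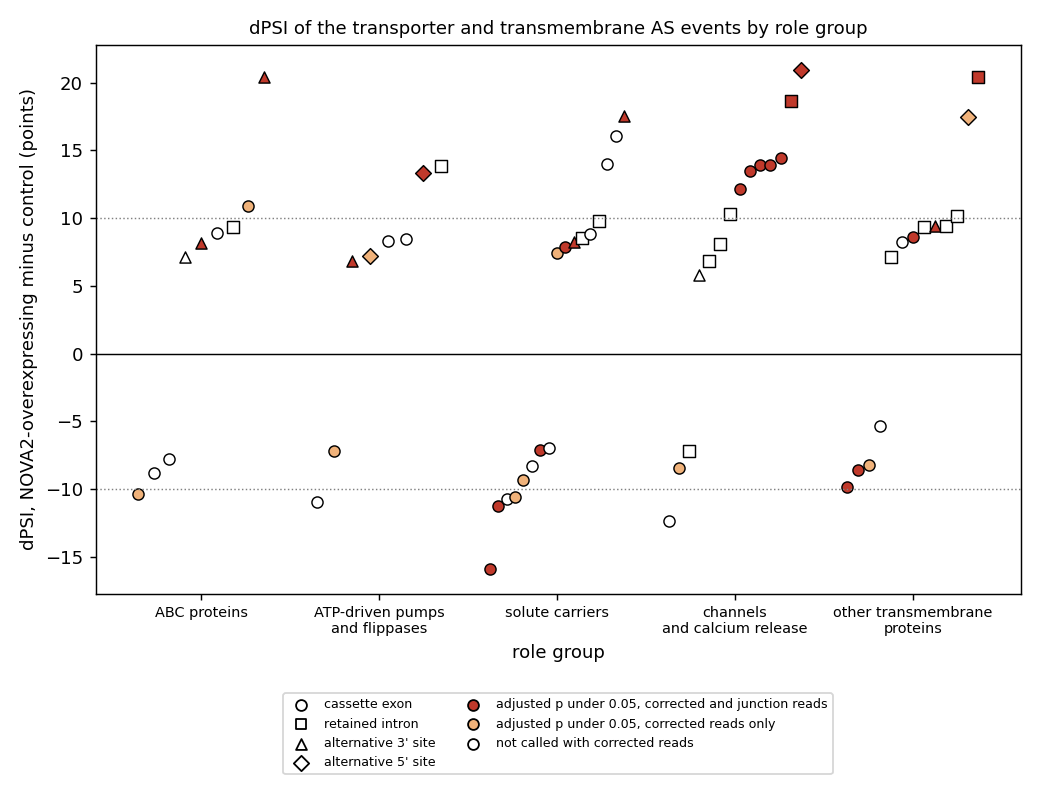
dPSI in percentage points (vertical axis) of 61 of the 62 events by role group, with the shape giving the event class and the fill giving the calls of Fisher's exact test. Red events were called on corrected and on junction reads, orange events on corrected reads only, and dotted lines mark 10 points. Retained introns and splice sites lie above 0 with 1 exception, and cassette exons on both sides.

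By class, there were 36 cassette exons and 14 retained introns, besides 8 Alt3 and 4 Alt5 events. Cassette exons were listed as higher in 16 cases and lower in 20, and 9 were called higher and 12 lower by Fisher's exact test, 58.3% in all. Of all listed cassette exons 37.3% were higher and 70.1% were called. Retained introns were listed as higher in 13 of 14 cases (92.9%, beside 78.8% of all listed introns). Only 2 of the 14 were called by Fisher's exact test on corrected reads (14.3%, beside 40.2% of all listed introns). On junction reads 6 were called (42.9%, beside 58.8%). Of the 2 called on corrected reads, the Itpr1 intron had almost no reads at its far end. The 8 Alt3 events were called in 6 cases and the 4 Alt5 events in 4, beside 42.9% of all listed Alt3 and 42.7% of all listed Alt5 events. On junction reads 7 Alt3 and 2 Alt5 events were called, beside 40.3% and 36.5% of those listed. Of the 42 genes, 12 had 2 or more events, and in 9 of these 12 genes 1 event at least was higher and another lower. This share was not counted over the whole table, so it is no trait of these genes. Alt3 and Alt5 events could only be listed as higher, and the 2 Atp6v1e1 events share reads. In Abca3 and Trp53i11, which are among the 9, no event was called on corrected reads.

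The calcium release channel Itpr1 held the largest increase of the 62 events, in a splice site that lengthens an exon by 27 nt. The longer exon was used more in NOVA2-overexpressing ECs, while the 45-nt cassette exon of the same gene was listed with a lower PSI. These are the 2 segments known from neurons as SIII and SI. In an annotated transcript with a coding sequence of 8247 nt, the 45 nt are codons 318 to 332. The 27 nt would enter it within codon 917. The shorter donor is an exon end in the annotation used, and the longer one is not. The PSI of the 27-nt extension was 51.3 and 37.3% in control replicates 1 and 2 and 65.1 and 65.4% in NOVA2-overexpressing replicates 1 and 2. The NOVA2-overexpressing libraries lay close together and above both control libraries, which were 14 points apart. The difference was 21.0 points (44.3 ± 9.92 against 65.2 ± 0.212, mean ± SD, n = 2 each) and passed Fisher's exact test (adjusted p = 0.00660, and 0.00764 on junction reads). Between 39 and 63 reads a library stood behind it. Without control replicate 2 it did not pass Fisher's exact test (adjusted p = 0.216), and the dPSI was 13.9 points.

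The intron that follows the extended Itpr1 exon (chr6:108338333-108339360) begins at the shorter donor and so contains the 27 nt. Its PSI was 32.1 and 22.0% in control ECs and 44.3 and 47.1% in NOVA2-overexpressing ECs, and this event also passed Fisher's exact test (adjusted p = 0.0177). Reads crossing its upstream boundary numbered 18 and 18 in control ECs and 34 and 30 in NOVA2-overexpressing ECs, and those crossing its downstream boundary 0 and 0 in control ECs and 1 and 2 in NOVA2-overexpressing ECs. The intron and the splice site share their exclusion reads (19, 32, 22 and 18 in the 4 libraries) and are not independent. Almost no read therefore reached the far end of the intron in any library. Reads of the longer donor numbered 20 and 19 in control ECs and 41 and 34 in NOVA2-overexpressing ECs, near those of the upstream boundary. The event therefore does not show retention of the whole intron, although it is counted here as a retained intron. Without control replicate 2 or NOVA2-overexpressing replicate 2 the intron did not pass Fisher's exact test (adjusted p = 0.271 and 0.0934).

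The 45-nt Itpr1 exon had a PSI of 62.6 and 59.8% in control ECs and 46.7 and 51.1% in NOVA2-overexpressing ECs. Its dPSI was −12.3 points, with 61 to 96 reads a library, and Fisher's exact test did not call it (adjusted p = 0.0512, and 0.0813 on junction reads). The exon lies inside coding sequence, keeps the reading frame and is present in 5 annotated transcripts.

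Tmc8, a member of the transmembrane channel-like family, had more events than any other of the 42 genes. For 5 exons of its later part the PSI rose by 12.2 to 14.4 points in NOVA2-overexpressing ECs, and for an earlier 83-nt exon it fell. The first of the 5, of 124 nt, had a PSI of 86.9 and 82.4% in control ECs and 100 and 97.2% in NOVA2-overexpressing ECs. The 98-nt exon had 85.4 and 82.7% in control ECs and 100 and 96.9% in NOVA2-overexpressing ECs, and the 184-nt exon 85.1 and 83.1% against 97.9 and 97.3%. The 131-nt exon had 87.8 and 83.8% against 98.4 and 97.5%, and the 159-nt exon 85.6 and 81.9% against 97.8 and 97.5%. In each of the 5 exons both control libraries lay under 90% and both NOVA2-overexpressing libraries over 95%. All 5 passed Fisher's exact test on corrected reads (adjusted p from 1.35e-04 to 4.01e-04) and on junction reads (0.00826 to 0.0190), and without each library in turn. The exclusion reads of the 5 exons were equal in number within 1 read. They numbered 3 to 4 in control replicate 1 and 6 in control replicate 2. In NOVA2-overexpressing replicate 1 they numbered 0 to 1, and in NOVA2-overexpressing replicate 2 they numbered 1. The 5 exons are thus taken as 1 observation, and whether the same transcripts skip all 5 was not tested. A PSI of 100% from 70 inclusion reads allows an exclusion of up to 4.29%.

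The 83-nt Tmc8 exon had a PSI of 100 and 97.0% in control ECs and 90.4 and 89.7% in NOVA2-overexpressing ECs. It fell by 8.4 points and was called by Fisher's exact test (adjusted p = 0.00531), but not on junction reads (0.0575) nor without control replicate 1 (0.195). Of the 6 Tmc8 exons, 5 lie opposite an annotated gene on the other strand, and whether the counting used strand is not given in the sources used here.

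**Figure D3:**
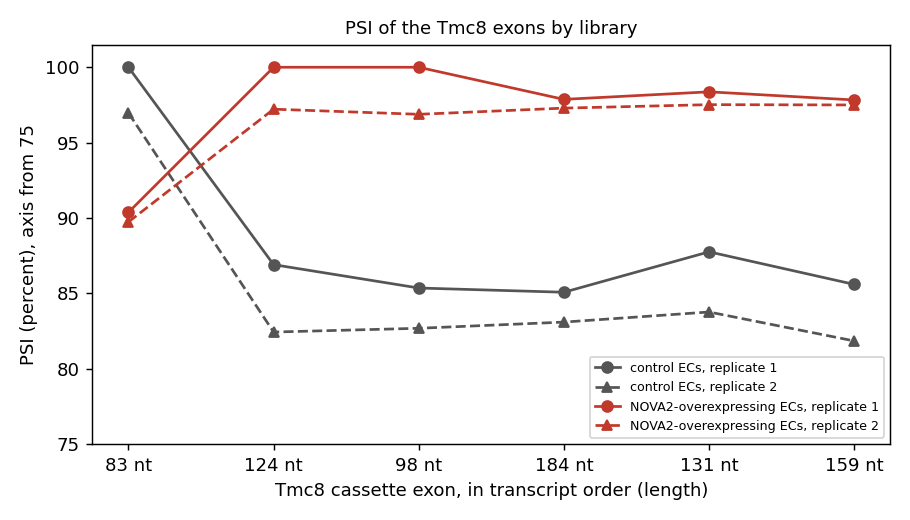
PSI in percent (vertical axis, starting at 75) of the 6 Tmc8 cassette exons in transcript order, named by their length in nt. Lines join the exons of a library, grey for control and red for NOVA2-overexpressing ECs. The first exon is lower and the other 5 are higher in NOVA2-overexpressing ECs, the latter on exclusion reads equal in number within 1 read.

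The other genes of the channel group were not called by Fisher's exact test on corrected reads. A 95-nt intron of Ano8, an anoctamin that ties the endoplasmic reticulum to the plasma membrane, had a PSI of 0 and 0% in control ECs and 9.13 and 11.5% in NOVA2-overexpressing ECs. With 15.4 to 35.9 corrected reads a library, the counts of 0 allow a share of up to 17.1 and 19.4% in control ECs. Its adjusted p in Fisher's exact test was 0.107 on corrected and 0.0279 on junction reads. In Trp53i11, 2 introns were listed in opposite directions: 0 and 3.23% against 8.57 and 8.33% for the 365-nt intron, and 6.67 and 7.69% against 0 and 0% for the 327-nt intron. Each rests on 11 to 20 reads a library, and neither was called. Cacnb3, a subunit of voltage-gated calcium channels, and the chloride channel Clcn2 had a dPSI of 5.81 and 8.07 points. In the whole channel group, 7 of 14 events were called higher and 1 lower, beside 30.5% and 25.5% of the table. The 7 are the 5 Tmc8 exons and the Itpr1 site and intron, so they rest on 2 sets of shared exclusion reads, and the 14 include both Trp53i11 introns.

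Genes of calcium handling were also looked up as a list of 49 (pumps, release and entry channels, exchangers, phospholipases, calcineurin and its NFAT targets). Only 5 of them had an event in the table, 8 events in all, of which 4 were called higher and 1 lower by Fisher's exact test, beside 30.5% and 25.5% of the table. The Itpr1 site and intron, on shared exclusion reads, are 2 of the 4. Besides Itpr1, Atp2b1 and Atp2b4 these were Plcb4, a phospholipase that makes inositol trisphosphate, and the transcription factor Nfatc3. A 36-nt exon of Plcb4 had a PSI of 26.7 and 40.0% in control ECs and 57.4 and 56.5% in NOVA2-overexpressing ECs (Fisher's exact test, adjusted p = 0.0151). A 1138-nt exon of Nfatc3 had a PSI of 98.4 and 100% in control ECs and 81.2 and 88.8% in NOVA2-overexpressing ECs (Fisher's exact test, adjusted p = 2.78e-21). Both passed on junction reads too.

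Among the ATP-driven pumps and flippases, 9 events in 7 genes were listed, counting Atp5sl, which is no part of an ATPase. Fisher's exact test called 3 higher and 2 lower, 55.6% in all, beside 56.0% of the table. Atp8a1, a flippase that moves phosphatidylserine to the inner face of membranes, had a 74-nt exon with a PSI of 72.0 and 70.5% in control ECs and 62.0 and 58.7% in NOVA2-overexpressing ECs. The libraries of each group lay within 4 points, and the event was not called (Fisher's exact test, adjusted p = 0.131), with 48 to 75 reads a library.

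Atp2b1, a plasma membrane calcium pump, used the longer of its donor sites more in NOVA2-overexpressing ECs. The PSI of the longer site was 46.2 and 45.0% in control ECs and 63.1 and 54.9% in NOVA2-overexpressing ECs, a rise of 13.4 points that passed Fisher's exact test (adjusted p = 2.44e-05) and kept its call without each library. This PSI depends on the correction: before it, 222 and 237 reads in control ECs and 371 and 427 reads in NOVA2-overexpressing ECs used the longer site, and 25, 28, 21 and 34 reads the shorter one. The uncorrected share of the longer site was thus 89.9 and 89.4% in control ECs and 94.6 and 92.6% in NOVA2-overexpressing ECs (Fisher's exact test on junction reads, adjusted p = 0.0299). The correction multiplied the odds of the longer site by 0.0968. As printed above, the shorter site is followed by AA. Both sites are exon ends in the annotation used.

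Atp6v1e1, a subunit of the V-ATPase that acidifies endosomes and lysosomes, had a 66-nt exon and a donor site in the exon before it. The PSI of the exon was 74.7 and 74.5% in control ECs and 66.8 and 68.1% in NOVA2-overexpressing ECs, and that of the donor site 26.2 and 26.5% against 33.8 and 33.3%. Both were called on corrected reads (Fisher's exact test, adjusted p = 7.65e-08 and 2.65e-04) and neither on junction reads (0.158 and 0.153). Junction reads, with both inclusion junctions counted, gave the exon an inclusion of 98.5 and 98.4% in control ECs. In NOVA2-overexpressing ECs they gave 97.9 and 98.0%. The reads that skip the exon (15, 22, 34 and 31 in the 4 libraries) are, within 1 read, those that use the donor site, so both events are 1 observation. This donor site is the shorter one printed above, and the annotation used has an exon end 4 nt further but none at this site.

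**Figure D4:**
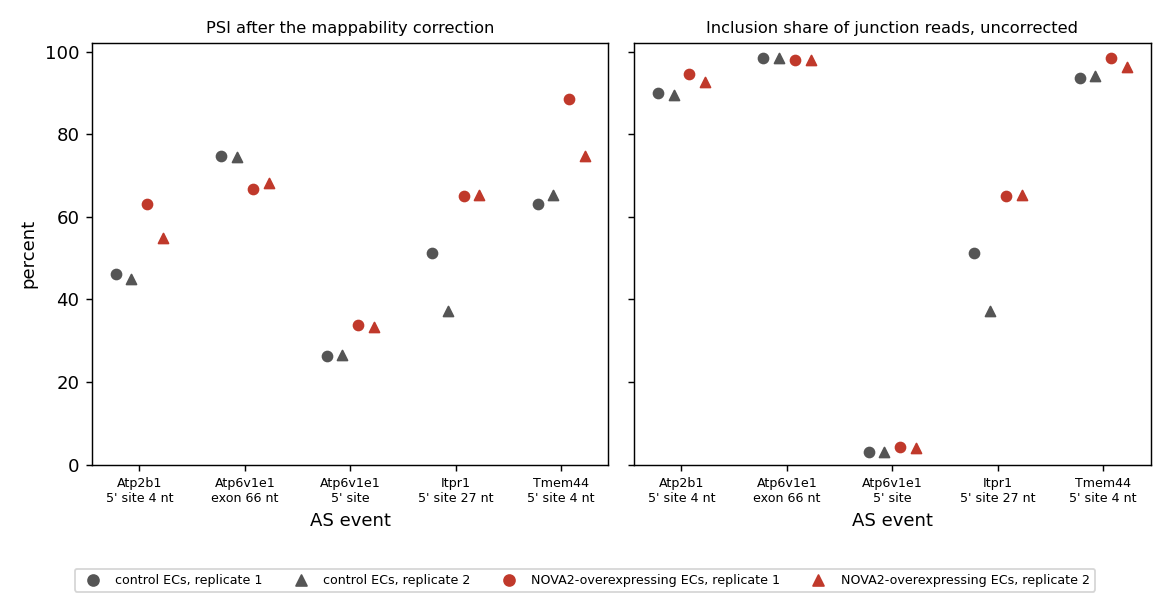
Inclusion in percent (vertical axis) of 5 AS events after the mappability correction (left, the deposited PSI) and as the share of uncorrected junction reads (right). Circles and triangles are replicates 1 and 2, grey for control and red for NOVA2-overexpressing ECs. The correction moves the events that differ by 4 nt and the Atp6v1e1 exon far along the axis, and leaves the 27-nt Itpr1 event in place. For the Atp6v1e1 exon the right panel counts both inclusion junctions.

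In the remaining genes of this group, Atp13a2, a lysosomal exporter of polyamines, used an upstream acceptor site at 92.9 and 93.5% in control ECs and 100 and 100% in NOVA2-overexpressing ECs. It was called (Fisher's exact test, adjusted p = 0.0247) on 3, 3, 0 and 0 exclusion reads, and lost the call without any 1 library (0.0751 to 0.227). The calcium pump Atp2b4 had a 192-nt exon with a PSI of 91.0 and 92.4% in control ECs and 100 and 100% in NOVA2-overexpressing ECs, and a 181-nt exon with 7.69 and 11.1% against 18.5 and 17.2%. Neither was called, at 14 to 28 reads a library. A 431-nt intron of Atp5sl had a PSI of 15.9 and 26.1% in control ECs and 36.7 and 33.1% in NOVA2-overexpressing ECs, and was not called (Fisher's exact test, adjusted p = 0.144).

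Among the ABC proteins, the lipid transporter Abca7 had the largest dPSI. Of acceptor sites 47 nt apart at a coding exon, only the upstream site, which gives the longer exon, is in the annotation used. That annotated site was used at 75.1 and 77.8% in control ECs and at 98.1 and 95.7% in NOVA2-overexpressing ECs. The rise of 20.4 points passed Fisher's exact test (adjusted p = 5.52e-04, and 7.11e-04 on junction reads) and kept its call without each library, although control replicate 1 gave only 24 reads. An intron of Abca7 of 248 nt had a PSI of 8.85 and 9.13% in control ECs and 16.0 and 20.8% in NOVA2-overexpressing ECs, and was not called (Fisher's exact test, adjusted p = 0.142). In Abcc5, an exporter of cyclic nucleotides, an acceptor site rose by 8.16 points in NOVA2-overexpressing ECs (Fisher's exact test, adjusted p = 0.0167). That call was lost without control replicate 1, control replicate 2 or NOVA2-overexpressing replicate 1 (0.0979 to 0.129).

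Abca4, a transporter of retinoids in photoreceptors, had 3 cassette exons in the table. The 138-nt exon had a PSI of 83.5 and 94.7% in control ECs and 100 and 100% in NOVA2-overexpressing ECs (Fisher's exact test, adjusted p = 0.00735). The 106-nt exon went the other way, from 100 and 100% to 85.5 and 93.8% (Fisher's exact test, adjusted p = 0.0341), and the 124-nt exon had 77.7 and 80.6% against 70.0 and 72.7% and was not called. These values rest on 26 to 76 reads a library, and neither call was made on junction reads (0.0785 and 0.267). The exclusion reads were 3, 1, 0 and 0 for the 138-nt exon and 0, 0, 2 and 1 for the 106-nt exon. Both calls were lost without control replicate 1 or NOVA2-overexpressing replicate 1, that of the 138-nt exon also without NOVA2-overexpressing replicate 2, and that of the 106-nt exon also without control replicate 2 (0.0600 to 0.275).

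The surfactant lipid transporter Abca3 had an exon at 88.5 and 92.5% in control ECs and 81.3 and 82.1% in NOVA2-overexpressing ECs, and an acceptor site at 0 and 0% against 8.76 and 5.44%. Neither was called by Fisher's exact test on corrected reads, and the site was on junction reads (adjusted p = 0.0310). An exon of Abcc10 with 10 to 24 reads a library was not called. In this group of 9 events, 3 were called higher and 1 lower, 44.4% in all, beside 56.0% of the table.

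The solute carriers were the largest role group, with 17 events in 12 genes. Of these events 4 were called higher and 5 lower, 52.9% in all, beside 56.0% of the table. The decrease with the smallest p of all 62 events was in Slc30a4, which encodes the zinc transporter ZnT4. Its 205-nt exon, inside coding sequence, was included at 98.9 and 98.5% in control ECs and at 93.5 and 89.8% in NOVA2-overexpressing ECs. It fell by 7.1 points, and with 820 to 963 reads a library the adjusted p was 4.15e-23 in Fisher's exact test and 3.61e-12 on junction reads. Reads that skip it numbered 4 and 7 in control ECs and 29 and 45 in NOVA2-overexpressing ECs. Skipping was thus rare in control ECs, and more frequent but still the minor form in NOVA2-overexpressing ECs. The length is not a multiple of 3. Its 8 YCAY letters, printed above, are 3.90 per 100 nt, beside a mean of 2.28 in all listed cassette exons with a lower PSI. Among the 36 cassette exons of these genes the mean was 2.22 in the 20 lower and 1.88 in the 16 higher. It was 0.994 in those lower and 1.54 in those higher by 10 points or more.

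The sodium-proton exchanger Slc9a5 showed the largest decrease among the solute carriers. Its 78-nt exon had a PSI of 35.3 and 37.0% in control ECs and 21.3 and 19.3% in NOVA2-overexpressing ECs, and the replicates of each group lay within 2 points. It fell by 15.9 points (Fisher's exact test, adjusted p = 0.00647, and 0.00285 on junction reads), with 46 to 114 reads a library. Without control replicate 2 it did not pass Fisher's exact test (0.119). The exon has no counterpart in the annotation used and keeps the reading frame in length. The 200 nt before it hold 12 YCAY matches, the most of the 36 cassette exons. Such counts ranged from 0 to 12 for exons with a lower PSI and from 0 to 8 for those with a higher PSI.

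Slc12a8, a member of the cation-chloride cotransporter family, had a 118-nt coding exon with a PSI of 87.7 and 85.1% in control ECs and 75.0 and 75.4% in NOVA2-overexpressing ECs. It fell by 11.2 points (Fisher's exact test, adjusted p = 0.0108, and 0.0389 on junction reads) and was not called without control replicate 1 (0.106). The nucleoside transporter Slc29a2 used an acceptor site at 21.4 and 8.11% in control ECs and at 27.7 and 37.0% in NOVA2-overexpressing ECs. The call (Fisher's exact test, adjusted p = 0.0158) was lost without control replicate 2 (0.354) or NOVA2-overexpressing replicate 2 (0.136), and the replicates of both groups lay far apart.

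Mitochondrial carriers of the group were listed in both directions. Slc25a40, a carrier of glutathione, had a 72-nt exon of the untranslated region with a PSI of 34.8 and 27.1% in control ECs and 48.2 and 45.8% in NOVA2-overexpressing ECs. Its 16.1 points missed the threshold on corrected reads (Fisher's exact test, adjusted p = 0.0533) and passed it on junction reads (0.0446). In Slc25a45, 2 exons that share their exclusion reads were lower, the 85-nt exon at 91.7 and 95.9% against 80.0 and 86.2% and the 44-nt exon at 95.2 and 97.2% against 84.1 and 89.7%. Only the 44-nt exon was called (Fisher's exact test, adjusted p = 0.0210), not on junction reads (0.108) and not without control replicate 2 (0.268) or NOVA2-overexpressing replicate 1 (0.129).

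Slc38a9, the lysosomal arginine sensor of the mTORC1 pathway, had an 85-nt exon at 27.6 and 34.4% in control ECs and 48.8 and 41.2% in NOVA2-overexpressing ECs. It was not called (Fisher's exact test, adjusted p = 0.0997), with 24 to 41 reads a library, and no annotated exon matches it. Slc35a5, of the nucleotide sugar transporter family, had 3 exons. The 781-nt exon rose from 92.5 and 91.8% to 100 and 100% (Fisher's exact test, adjusted p = 0.00119) and kept its call without each library. The 134-nt exon was at 100 and 100% in control ECs and 91.3 and 87.5% in NOVA2-overexpressing ECs (Fisher's exact test, adjusted p = 0.0236), and the 68-nt exon at 85.7 and 87.9% against 96.6 and 94.7%, not called. The 134-nt exon was not called on junction reads (0.127), nor without control replicate 1, control replicate 2 or NOVA2-overexpressing replicate 2 (0.0669 to 0.213).

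The amino acid transporter Slc43a1 (LAT3) had 2 exons and an intron in the table. The 134-nt exon was at 94.6 and 90.5% in control ECs and 100 and 100% in NOVA2-overexpressing ECs (Fisher's exact test, adjusted p = 0.0236). That call was not made on junction reads (0.134), nor without control replicate 2 or either NOVA2-overexpressing replicate (0.139 to 0.168). The intron that begins at the end of this exon was at 11.1 and 8.86% against 17.7 and 19.3%, and the 124-nt exon at 82.9 and 84.7% against 77.5 and 73.6%, neither of them called. An acceptor site of Mfsd11 rose by 8.23 points (Fisher's exact test, adjusted p = 0.0457) and lost its call without any 1 library (0.0750 to 0.142). The intron of Mfsd3 and the exon of Slc4a8 were not called on corrected reads.

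Among the other transmembrane proteins, the exons of Tmem138 and Tmem179b were the best covered. Tmem138 is a protein of the primary cilium. The 99-nt exon of Tmem138 was included at 98.4 and 98.8% in control ECs and at 90.0 and 90.0% in NOVA2-overexpressing ECs, on 506 to 781 reads a library. It fell by 8.6 points (Fisher's exact test, adjusted p = 4.42e-21, and 3.62e-11 on junction reads), and the skipping reads were 4 and 4 in control ECs and 41 and 40 in NOVA2-overexpressing ECs. In the annotation used, these 99 nt are the 3′ part of a 172-nt coding exon (chr19:10649327-10649498), and no annotated exon has both ends.

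Tmem179b had a 135-nt coding exon at 91.3 and 87.8% in control ECs and at 80.4 and 79.0% in NOVA2-overexpressing ECs. It fell by 9.9 points (Fisher's exact test, adjusted p = 1.49e-09) on 487 to 664 reads a library. An acceptor site of the same gene was used at 8.81 and 8.32% in control ECs and 18.9 and 17.0% in NOVA2-overexpressing ECs (Fisher's exact test, adjusted p = 0.00973). The exon kept its call without each library, and the site lost it without control replicate 2 (0.0883) or NOVA2-overexpressing replicate 1 (0.0618).

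Of the rest, 5 genes had a retained intron. A 367-nt intron of Tmem149 was retained at 36.6 and 24.6% in control ECs and at 47.1 and 54.8% in NOVA2-overexpressing ECs, a rise of 20.4 points (Fisher's exact test, adjusted p = 0.0195). The call was lost without control replicate 2 (0.367) or NOVA2-overexpressing replicate 2 (0.121). The interval also overlaps the neighbouring gene U2af1l4 on the same strand, so reads of both genes cannot be told apart there. An intron of Tmem161b of 10383 nt had 16.7 and 16.2% against 29.0 and 24.2%, and was not called (Fisher's exact test, adjusted p = 0.146). Its interval overlaps annotated coding sequence of the gene. Introns of Tmem127, Tmem175, a lysosomal ion channel, and Tmem194b were higher by 7.17 to 9.40 points and not called on corrected reads. Fisher's exact test on junction reads called those of Tmem175 and Tmem194b (adjusted p = 0.0319 and 0.0111), but not that of Tmem127 (0.0853). Reads at the boundaries of the Tmem175 intron were 13 and 1, then 21 and 1, in control ECs. In NOVA2-overexpressing ECs they were 22 and 5, then 31 and 2, so retention of the whole intron is not shown.

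Tmem44 used the longer of its donor sites at 63.0 and 65.3% in control ECs and at 88.6 and 74.6% in NOVA2-overexpressing ECs, a rise of 17.4 points (Fisher's exact test, adjusted p = 0.00527). As in Atp2b1 the sites differ by 4 nt, and junction reads put the longer site at 93.5 and 94.1% in control ECs and 98.5 and 96.2% in NOVA2-overexpressing ECs, from 4, 5, 1 and 2 reads of the shorter site (Fisher's exact test, adjusted p = 0.254). Without NOVA2-overexpressing replicate 1 the call on corrected reads was lost (0.277). Exons of Tmem120b (8.61 points) and Tmem62 (−8.21 points) were called on corrected reads (Fisher's exact test, adjusted p = 0.00958 and 0.0443), and only the former on junction reads. The Tmem120b exon overlaps an annotated gene on the other strand. Tmem120b lost its call without NOVA2-overexpressing replicate 1 (0.199) and Tmem62 without any 1 library (0.0574 to 0.291). In this group of 13 events, 4 were called higher and 3 lower, 53.8% in all, beside 56.0% of the table.

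The 36 cassette exons were described by features that had no part in their choice. Of these, 28 lay inside annotated coding sequence and 32 matched an annotated exon. A length divisible by 3, which keeps the reading frame only where the exon is a whole coding exon, was found in 13 of 36 (36.1%). That stands beside 289 of 549 (52.6%) of all listed cassette exons. The 13 include the untranslated Slc25a40 exon, the Slc9a5 exon without a counterpart in the annotation, and the Tmem138 exon, which is part of an annotated exon. Exons that share reads, such as those of Tmc8, are counted singly here. The median length was 116 nt, beside 105 nt. All 36 exons were preceded by AG and followed by GT.

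YCAY matches were counted in the 200 nt on either side and in the exon. Before exons with a lower PSI the mean was 2.02 per 100 nt, beside 2.03 for all listed exons with a lower PSI, and before exons with a higher PSI 1.75 beside 1.54. Inside the exon the means were 2.22 beside 2.28 for a lower and 1.88 beside 1.59 for a higher PSI. After the exon they were 1.38 beside 1.65 for a lower and 1.5 beside 1.83 for a higher PSI. At least 5 matches before the exon were found in 12 of 36 exons (33.3%), beside 29.9% of all 549, and 28 of the 549 held none. The exons of transporter and transmembrane genes thus had about as many matches as the table as a whole. A match is only a run of letters, and binding was not measured.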

How the data were processed

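RNA-seq libraries of 2 control and 2 NOVA2-overexpressing mouse EC samples were compared. The authors ran vast-tools (version not given in the sources used here) on mm9, and the deposited table holds the PSI of each library as a percent. A text field, also deposited by the authors, gives a coverage score (VLOW, LOW, OK or SOK), junction reads, and inclusion and exclusion reads corrected for mappability. The authors' column of dPSI and 4 pooled columns were not used, and neither were 12 columns of libraries outside the comparison. The dPSI was recomputed from the PSI of the libraries.

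Corrected reads were rounded and summed over the libraries of a group, and Fisher's exact test was adjusted by Benjamini-Hochberg over all 1075 events. The study's methods give a dPSI threshold of 10 points and no test. Corrected reads are not independent counts, and PCR copies could not be told apart. The correction can also turn few junction reads into many corrected ones. In the Atp6v1e1 exon, 15 of 1018 junction reads in control replicate 1 skipped it, while the corrected PSI was 74.7%. A p on corrected reads can therefore be smaller than the observed reads allow. Tests and limits thus cover no more than counting error. For a PSI of 0 or 100%, the share that 3 reads would make is printed only for Ano8 and the 124-nt Tmc8 exon. Elsewhere such a PSI stands without this limit, which was wide at low coverage. In control replicate 1 it was 27.3% for the 365-nt Trp53i11 intron (11 reads). For the 106-nt Abca4 exon in that library it was 11.5% (26 reads). Alternatives were limma 3.58.1 in R 4.3.3 (pseudocount 0.5), quasi-binomial regression, Cochran-Mantel-Haenszel tests with the replicate number as strata, coverage filters, thresholds, 1 event per gene and leaving out each library. Added after seeing the data were the test on junction reads, 1 event per set of shared reads, and crossed replicate numbers.

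Every library's PSI is printed where the dPSI was 10 points or more in size and for genes with 2 or more events, and the dPSI for other events called. The genes and lists were chosen with earlier results of these data known. The sequences shown were chosen after the values were seen, and those of Slc30a4 and Tmem138 lie outside the rule for sequences. They and the exon positions come from NCBIM37 and its GENCODE annotation. A table of protein sequences was not used here. The software was scipy 1.17.1, pandas 2.3.3 and numpy 2.4.6 under Python 3.11.15, and matplotlib 3.10.9 for plots. 1 event is counted but not reported here by name.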

Additional observations from a re-analysis of the deposited data

How the results depend on the processing

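No dPSI and no single call changed direction under the alternatives, which carries little information. Leaving out a library cannot reverse a dPSI, since the table requires a gap between all libraries of the groups. Tests on all libraries other than limma took their direction from the main dPSI. Against 33 calls of Fisher's exact test (21 higher, 12 lower), limma called 53 (34 and 19) and quasi-binomial regression 12 (8 and 4), and over all 1075 events these called 926 and 265. Junction reads before the correction, which count both inclusion junctions of exons and introns, left 6 lower calls beside 23 higher ones. An adjusted p under 0.01 left 21 calls with 7 lower, adjustment over events of 10 points or more left 20 with 6 lower, and 1 event per gene left 19 with 9 higher. The cause of these shifts was not tested. Of the 26 events of 10 points or more, 12 had the score OK or better in all libraries, 14 remained with 1 event per gene, 9 reached 15 points and 4 reached 20. Leaving out 1 library at a time gave 19 to 23 calls, 12 to 17 higher and 6 to 9 lower, 26 to 29 events of at least 10 points, and a median absolute dPSI of 9.19 to 9.71. Of the 33 calls, 13 were kept without each library, and 11 of these were also called on junction reads. The 13 include 5 Tmc8 exons and both Atp6v1e1 events, each set counted above as 1 observation, and the 11 include the Tmc8 exons. The share kept over the whole table was not counted. Same-numbered replicates did not deviate together (correlation 0.00386 over all events, −0.215 over the 62), so the numbers are not shown to pair the libraries. With the replicate number as a block, the Cochran-Mantel-Haenszel test called 29 (19 and 10), all among the 33, and limma 45 (28 and 17). With crossed numbers the former called 28 (18 and 10). Over all events the block gave 517 calls with the Cochran-Mantel-Haenszel test and 880 with limma. Of 520 adjusted p of single events under an alternative, 399 stayed on their side of 0.05, 92 were lost and 29 gained. At a median of 39 to 63.5 reads per event and library, small differences in PSI could not be told from counting error.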
